A study of Mus musculus with 2 samples.

Results

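The P2Y receptors are G protein-coupled receptors on the cell surface, and the 5 described here are the genes P2ry10, P2ry10b, P2ry12, P2ry13 and P2ry14, taken by symbol from the 31253 genes of the deposited count matrices. They were measured by single-cell RNA sequencing of cells from mouse spleen, sorted as CD4+ Foxp3+ regulatory T (Treg) cells. The fl/fl library came from Foxp3YFP-Cre Kmt2dfl/fl mice and the +/+ library from Foxp3YFP-Cre Kmt2d+/+ mice. Both groups carry Foxp3YFP-Cre, in which the Foxp3 locus drives a YFP-Cre fusion, so the groups differ in whether Kmt2d, a histone H3 lysine methyltransferase, is flanked by loxP sites. The mice's age and strain are not given in the sources used here. Each library pooled the cells of 3 mice, and each group has 1 library. No test across replicates was therefore possible, the spread between mice cannot be seen, and every interval below is a 95% interval that covers counting error only.

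P2Y receptors answer extracellular nucleotides, nucleotide sugars or lysophospholipids that cells release, and they pass the signal to heterotrimeric G proteins. P2Y12 and P2Y13 bind ADP and P2Y14 binds UDP-glucose and related UDP-sugars, and all 3 are known for coupling to inhibitory G proteins. P2Y10 is named after the nucleotide receptors by sequence, but is known as a lysophosphatidylserine receptor that acts through heterotrimeric G proteins. P2ry10b is its close copy in the mouse.

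The fl/fl file held 8784 barcodes and 63989234 unique molecular identifiers (UMIs, each 1 captured RNA molecule), and the +/+ file 7947 barcodes and 53680614 UMIs. After barcodes with few genes or a high mitochondrial share were left out, 8634 fl/fl and 7790 +/+ cells remained. The libraries shared 15 barcodes, none with the same count profile. Cells were gated by UMI counts of marker genes, never by the receptors. The label "Treg cells" held for 3820 fl/fl cells (44.2% of those kept) and 4025 +/+ cells (51.7%), which passed a gate on Foxp3, Ikzf2, Ctla4, Il2ra, Izumo1r and Tnfrsf18. Other T cells, B cells, plasma cells, NK cells, granulocytes, macrophages and dendritic cells made up most of the remainder. Within the Treg gate, Foxp3 was at 26.5 CPM (a gene's UMIs per 1000000 UMIs of the gated cells) in fl/fl and 37.3 CPM in +/+. Kmt2d was at 71.1 CPM in fl/fl and 74.1 CPM in +/+ Treg cells. The 3' tags counted here check a deletion only where they lie within the deleted part, and the floxed exons are not given in the sources used here.

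The 5 genes lie in 2 places of the genome (GRCm38, GENCODE M21). P2ry14 (ENSMUSG00000036381, chr3:59113855-59153618), P2ry13 (ENSMUSG00000036362, chr3:59207892-59210882) and P2ry12 (ENSMUSG00000036353, chr3:59216272-59262871) stand on the minus strand of chromosome 3. All 3 lie inside Med12l (chr3:59005825-59318682), which runs on the plus strand. Whether the authors' counts used strand is not given in the sources used here. Without strand, reads from Med12l and from these receptors cannot be told apart. P2ry10 (ENSMUSG00000050921, chrX:107088492-107104974) and P2ry10b (ENSMUSG00000054293, chrX:107148927-107173661) follow each other on the plus strand of chromosome X, 44.0 kb apart.

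P2ry10 and P2ry10b were the closest pair in sequence. Their coding sequences, of 984 and 1056 bases, matched at 81.2% of the aligned positions, while the other 9 pairs among the 5 genes matched at 57.5% to 61.3%. The longest identical run in the transcripts of P2ry10 and P2ry10b was 160 bases, within the coding sequence of both (chrX:107102675-107102834 in P2ry10 and chrX:107171250-107171409 in P2ry10b, plus strand). It is shown because a read inside it cannot be given to 1 of the 2 genes.
Shared run of P2ry10 and P2ry10b: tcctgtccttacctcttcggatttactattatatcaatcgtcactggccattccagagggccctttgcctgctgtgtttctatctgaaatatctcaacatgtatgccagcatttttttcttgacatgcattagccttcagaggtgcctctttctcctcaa
The run ends 2140 bases before the 3' end of transcript P2ry10-201 and 2248 bases before that of P2ry10b-201, and the assay captures 3' ends. No other pair shared a run of more than 15 bases. The split of UMIs between P2ry10 and P2ry10b is uncertain for reads from shared stretches, so both the separate and the summed values are given for Treg cells.

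The promoters of the 3 receptor genes that differed between the libraries in Treg cells are shown from 250 bases before to 50 bases after the most upstream start that RefSeq (GRCm38.p6) lists for each. Capitals mark matches to 12 motifs searched on both strands.
P2ry14 (chr3:59153443-59153742, minus strand): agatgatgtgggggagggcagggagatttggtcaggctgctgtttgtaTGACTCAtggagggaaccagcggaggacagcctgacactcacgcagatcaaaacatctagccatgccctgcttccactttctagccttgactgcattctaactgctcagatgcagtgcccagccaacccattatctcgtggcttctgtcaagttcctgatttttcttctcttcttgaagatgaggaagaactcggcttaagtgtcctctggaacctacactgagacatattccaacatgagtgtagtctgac
P2ry10b (chrX:107148677-107148976, plus strand): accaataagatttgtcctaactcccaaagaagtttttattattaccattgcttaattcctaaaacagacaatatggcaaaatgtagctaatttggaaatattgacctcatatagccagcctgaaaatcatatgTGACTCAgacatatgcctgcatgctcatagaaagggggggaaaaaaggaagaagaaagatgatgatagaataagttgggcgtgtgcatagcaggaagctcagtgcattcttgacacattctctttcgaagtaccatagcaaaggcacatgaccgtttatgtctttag
P2ry10 (chrX:107088242-107088541, plus strand): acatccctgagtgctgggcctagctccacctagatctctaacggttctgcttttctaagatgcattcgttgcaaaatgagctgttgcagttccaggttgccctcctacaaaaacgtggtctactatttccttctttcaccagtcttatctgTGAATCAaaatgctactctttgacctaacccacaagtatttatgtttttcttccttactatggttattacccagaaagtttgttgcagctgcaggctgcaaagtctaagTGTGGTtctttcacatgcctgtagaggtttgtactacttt
Each of the 3 promoters held 1 match to the AP-1 motif TGANTCA, which 7.92% of the 27025 promoters of the same length hold. The P2ry12 and P2ry13 promoters held none. P2ry10 and P2ry13 held 1 match each to the RUNX motif TGTGGT (16.9% of all promoters), and P2ry12 held 1 match to the E-box CACGTG (7.24%). The other 9 motifs had no match in any of the 5 promoters: FOX (TGTTTAC, 3.52% of all promoters), STAT (TTCNNNGAA, 8.42%), the ISRE motif (3.49%), OCT (ATGCAAAT, 1.77%), CRE (TGACGTCA, 1.85%), GC box (GGGCGG, 35.9%), TATA box (TATAAA, 14.2%), PU.1 (GAGGAAGT, 3.25%) and NFAT (TGGAAAA, 6.82%). None of the motifs in capitals overlapped another. A match is a description of the letters and not a binding site. RefSeq lists further starts for P2ry14 (4 in all), P2ry10b (3) and P2ry10 (2), and 3' tags do not show which was used.

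P2ry14, the UDP-glucose receptor, was the member with the largest ratio between the libraries in Treg cells. It had 606 UMIs (21.3 CPM, interval 19.6 to 23.0) in fl/fl Treg cells, against 172 UMIs (6.77 CPM, interval 5.80 to 7.87) in +/+ Treg cells. This is a log2 ratio of 1.65 (interval 1.40 to 1.90), or 3.14-fold. The fl/fl UMIs were spread over 468 cells with at most 5 in any cell, and the +/+ UMIs over 137 cells with at most 4. The 10 cells with the most UMIs held 6.60% of them in fl/fl and 15.7% in +/+, so the difference did not rest on a few cells.

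P2ry10b, the copy of the lysophosphatidylserine receptor, was next. It had 619 UMIs (21.7 CPM, interval 20.04 to 23.5) in fl/fl Treg cells, against 242 UMIs (9.53 CPM, interval 8.37 to 10.8) in +/+ Treg cells. The log2 ratio was 1.19 (interval 0.97 to 1.41), or 2.28-fold. These UMIs came from 498 fl/fl and 207 +/+ cells.

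P2ry10 was by far the most abundant member in Treg cells and had the smallest ratio of the 3. It had 4864 UMIs (171 CPM) in fl/fl Treg cells, against 3602 UMIs (142 CPM) in +/+ Treg cells, a log2 ratio of 0.27 (interval 0.20 to 0.33). The interval excludes no difference, but the 1.20-fold ratio lies under the 1.5-fold used here to call a gene. P2ry10 and P2ry10b summed gave 192 CPM in fl/fl and 151 CPM in +/+ Treg cells, a log2 ratio of 0.35 (interval 0.29 to 0.41).

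The ADP receptors were near the limit of detection in Treg cells. P2ry12 had 24 UMIs in fl/fl and 15 UMIs in +/+ Treg cells, a log2 ratio of 0.51 whose interval (-0.48 to 1.55) includes no difference. P2ry13 had 0 UMIs in fl/fl Treg cells, where a floor of 3 counts allows up to 0.105 CPM (the exact Poisson interval reaches 0.129), and 1 UMI in +/+ Treg cells. A difference in either gene was not detectable at this depth.

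Set against all genes, 3 of the 5 members reached 10 CPM in either library's Treg cells, and 2 of them, P2ry10b and P2ry14, were higher in fl/fl by the rule of at least 1.5-fold with an interval excluding 1. P2ry10b and P2ry14 passed the 10 CPM floor in the fl/fl library alone, so reaching it went with being high there, and their count is a description. Among the 7946 genes at that floor, 178 (2.24%) were higher and 777 (9.78%) lower in fl/fl by the same rule. The lower ones were thus 81.4% of all called. The median gene had a log2 ratio of -0.14 on this scale, and scaling by the median of the gene-wise ratios instead gave 282 higher and 540 lower, or 65.7% lower. Relative to the median gene, P2ry10 stood at 0.40, and P2ry10b and P2ry14 remained called higher.

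**Figure D1:**
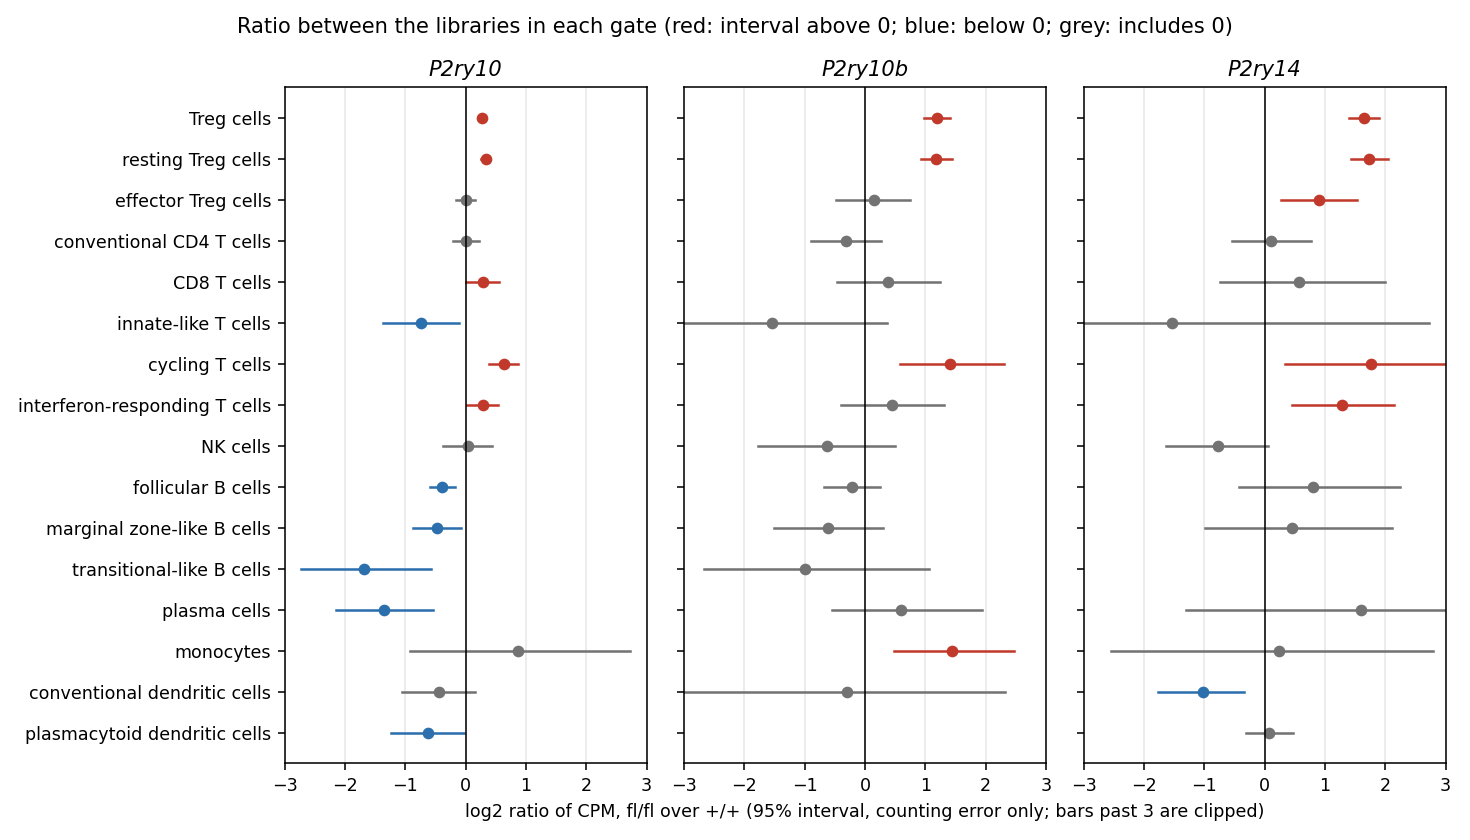
Log2 ratio of CPM (fl/fl over +/+) of P2ry10, P2ry10b and P2ry14 in each marker gate, with 95% intervals for counting error. In Treg cells the points lie at 0.27, 1.19 and 1.65, and in conventional CD4 T cells at 0.00, -0.32 and 0.11 with intervals that include 0.

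Shares of cells showed the same order. With every cell thinned to 2500 UMIs, P2ry14 was found in 4.90% (interval 4.24 to 5.64) of 3815 fl/fl Treg cells and in 1.22% (interval 0.91 to 1.61) of 4007 +/+ Treg cells. The thinned share in B cells was 2.42% (interval 1.63 to 3.46) in fl/fl and 1.61% (interval 0.70 to 3.15) in +/+. The fl/fl Treg share of P2ry14 lies above that of fl/fl B cells with intervals apart, and the +/+ Treg share overlaps that of +/+ B cells. B cells are not the lowest gate for P2ry14: cycling T cells were at 1.86 CPM in +/+ (interval 0.60 to 4.33), under the 6.77 CPM of +/+ Treg cells. How much of the +/+ Treg share is free RNA was not tested. P2ry10b was found in 5.06% of fl/fl and 2.27% of +/+ Treg cells. In neutrophils P2ry10b was found in 0 of 42 fl/fl cells, which allows a share of up to 7.14% by the same 3 counts, and in 0 of 74 +/+ cells, which allows up to 4.05%. These limits are no lower than the Treg shares, so neutrophils were too few to set a background for P2ry10b. Monocytes were also chosen as a type that should lack it. They had P2ry10b at 48.4 CPM in fl/fl and 17.8 CPM in +/+, against 21.7 and 9.53 CPM in Treg cells. Whether the monocyte UMIs are expression or free RNA was not tested. By CPM, P2ry10b in Treg cells thus lay above neutrophils but not above monocytes. P2ry10 was found in 30.6% of fl/fl and 27.2% of +/+ Treg cells, against 0 of 42 fl/fl and 1 of 74 +/+ neutrophils. P2ry12 was found in 0.236% of fl/fl and 0.175% of +/+ Treg cells. B cells, chosen as a type that should lack P2ry12, were higher, at 0.585% in fl/fl and 0.805% in +/+. Whether the B cell UMIs are expression or free RNA was not tested. The P2ry12 share of Treg cells was thus not shown to lie above background. Thinning left out 5 fl/fl and 18 +/+ Treg cells. Unthinned, the shares for P2ry14 were 12.3% in fl/fl and 3.40% in +/+ Treg cells, at median depths of 6867.5 and 5668 UMIs per cell, and 4.22% in fl/fl and 3.77% in +/+ B cells, at 4348 and 4880.

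Co-detection within single Treg cells was counted for the 3 measured receptors. Of the 468 fl/fl Treg cells with a P2ry14 UMI, 74 also had a P2ry10b UMI (15.8%), beside the 13.04% of all fl/fl Treg cells that had one. Of the 137 +/+ Treg cells with P2ry14, 12 had P2ry10b (8.76%), against 5.14% of all +/+ Treg cells. P2ry10 was found in 63.5% of fl/fl Treg cells with P2ry14 and in 55.7% of all fl/fl Treg cells, and in 47.4% of +/+ Treg cells with P2ry14 and 47.2% of all. P2ry10 was also found in 67.7% of fl/fl and 60.9% of +/+ Treg cells with P2ry10b. Each of these shares was at or above the share over all Treg cells. These shares rise with a cell's depth for any pair of genes, and are given as a description.

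Treg cells were divided by resting markers (among them Ccr7, Lef1, Tcf7 and S1pr1) and effector markers (Icos, Itgae, Tigit, Maf, Klrg1, S100a4). There were 3102 fl/fl and 2409 +/+ resting Treg cells. P2ry14 was at 23.4 CPM in fl/fl and 7.02 CPM in +/+ resting Treg cells (log2 ratio 1.74, interval 1.44 to 2.04). P2ry10b was at 24.1 CPM in fl/fl and 10.7 CPM in +/+ (1.18, interval 0.93 to 1.43). P2ry10 was at 177 CPM in fl/fl and 141 CPM in +/+ (0.33, interval 0.26 to 0.41). Both P2ry10b and P2ry14 were called higher there, where 2.13% of all measured genes were, and P2ry14 passed the 10 CPM floor through fl/fl alone.

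In effector Treg cells, of which there were 559 in fl/fl and 1072 in +/+, the picture differed by gene. P2ry14 was at 12.4 CPM in fl/fl and 6.62 CPM in +/+ (log2 ratio 0.90, interval 0.28 to 1.53), and was called higher, as were 3.85% of all genes measured there. It passed the 10 CPM floor through fl/fl alone, so nothing is read from that share. P2ry10b was at 9.84 CPM in fl/fl and 8.93 CPM in +/+ (0.14, interval -0.48 to 0.75). P2ry10 was at 137 CPM in fl/fl and 136 CPM in +/+ (0.00, interval -0.15 to 0.16). For P2ry10b and P2ry10 the resting and effector intervals do not overlap; for P2ry14 they overlap. The difference itself was not tested. The gate's own markers differ between the libraries, and 239 fl/fl and 620 +/+ Treg cells lay within 1 UMI of the divide.

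Levels were also set out without a divide. Treg cells with at least 3 resting and effector marker UMIs in all were put in 4 bins by the effector share of those UMIs (0, over 0 to 25%, over 25 to 50%, over 50%). Cells with fewer such UMIs were left out. P2ry14 was at 25.7, 23.7, 16.3 and 12.2 CPM in fl/fl from the lowest to the highest bin, against 6.64, 9.25, 5.42 and 6.55 CPM in +/+. The fl/fl level was lower in each further bin, with the intervals of the first and last bins apart, while in +/+ all neighbouring intervals overlap. P2ry10b was at 22.3, 26.1, 20.5 and 9.97 CPM in fl/fl, against 7.996, 14.1, 8.40 and 8.93 CPM in +/+. Its log2 ratio was 1.48 in the lowest bin and 0.16 (interval -0.46 to 0.76) in the highest. P2ry10 was at 159, 190.3, 175 and 136 CPM in fl/fl, against 135, 139.6, 169 and 138 CPM in +/+. P2ry10b was highest in the second bin in both libraries. P2ry10 was highest in the second bin in fl/fl and in the third in +/+. The log2 ratios of P2ry14 over the bins (1.95, 1.36, 1.59 and 0.90) were not in order.

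**Figure D2:**
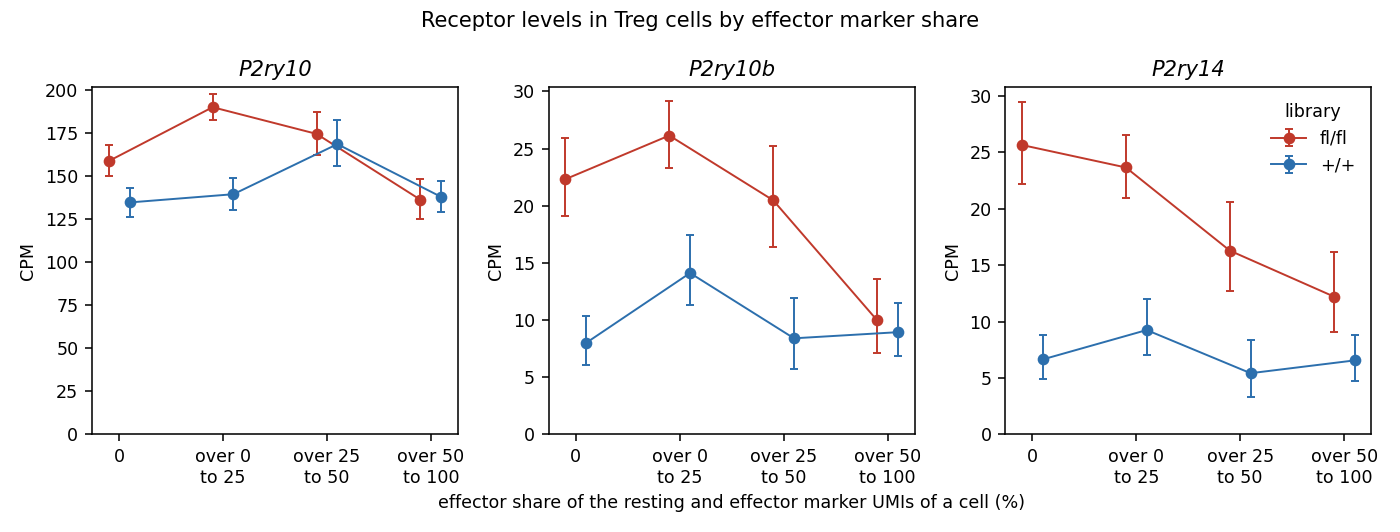
CPM of P2ry10, P2ry10b and P2ry14 in Treg cells by the effector share of a cell's resting and effector marker UMIs, with 95% Poisson intervals and fl/fl left of +/+ in each bin. P2ry14 is lower in each further bin in fl/fl, at 25.7, 23.7, 16.3 and 12.2 CPM, and lies between 5.42 and 9.25 CPM in +/+.

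Conventional CD4 T cells (600 fl/fl and 453 +/+), which came through the same sort with at most 2 UMIs of Treg markers, gave no such ratios. P2ry14 was at 15.9 CPM in fl/fl and 14.7 CPM in +/+ (log2 ratio 0.11, interval -0.53 to 0.77). P2ry10b was at 17.2 CPM in fl/fl and 21.5 CPM in +/+ (-0.32, interval -0.89 to 0.26). P2ry10 was at 132 CPM in both (0.00, interval -0.21 to 0.22). For all 3 genes the intervals of the conventional CD4 and resting Treg ratios do not overlap, while against Treg cells as a whole the P2ry10 intervals do (0.20 to 0.33 in Treg cells). The difference between the cell types was not tested. In +/+, P2ry14 and P2ry10b were lower in Treg cells (6.77 and 9.53 CPM) than in conventional CD4 T cells (14.7 and 21.5 CPM), with intervals apart. In fl/fl, P2ry14 was at 21.3 CPM in Treg and 15.9 CPM in conventional CD4 T cells, and P2ry10b at 21.7 and 17.2 CPM, with intervals that overlap for P2ry14 and P2ry10b alike.

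The other T cells and the NK cells gave ratios with wider intervals. In CD8 T cells (314 fl/fl, 225 +/+), P2ry10 was at 135 CPM in fl/fl and 111 CPM in +/+ (log2 ratio 0.28, interval 0.01 to 0.56). P2ry14 had 16 fl/fl and 8 +/+ UMIs there (0.57, interval -0.74 to 2.00), and with cells of several lineages kept in the gate its ratio was -1.83. In cycling T cells (177 fl/fl, 117 +/+), P2ry10 was at 123 CPM in fl/fl and 79.8 CPM in +/+ (0.63) and P2ry10b at 15.7 CPM in fl/fl and 5.94 CPM in +/+ (1.40), and both were called higher, against 4.04% of all genes. P2ry10b passed the floor there through fl/fl alone. P2ry14 had 23 fl/fl and 5 +/+ UMIs in cycling T cells (1.77, interval 0.34 to 3.52), under the 10 CPM floor. In interferon-responding T cells (231 fl/fl, 323 +/+), P2ry14 was at 21.7 CPM in fl/fl and 8.90 CPM in +/+ (1.28, interval 0.46 to 2.15) and was called higher, against 2.77% of all genes, having passed the floor through fl/fl alone. In innate-like T cells (76 fl/fl, 47 +/+), P2ry10 was at 102 CPM in fl/fl and 169.5 CPM in +/+ (-0.73, interval -1.37 to -0.11) and was called lower, against 3.85%. In NK cells (191 fl/fl, 164 +/+), the intervals of P2ry10, P2ry10b and P2ry14 all included no difference, with P2ry14 at 23.3 CPM in fl/fl and 39.9 CPM in +/+.

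Follicular B cells held the highest levels of P2ry10 and P2ry10b. In follicular B cells P2ry10 was at 211 CPM in fl/fl and 275 CPM in +/+, and P2ry10b at 49.6 CPM in fl/fl and 57.9 CPM in +/+, each the highest of the 16 gates ranked in its library. Only fl/fl P2ry10 (interval 193 to 230) was apart from the next gate, resting Treg cells. It overlapped the gate ranked after those, plasmacytoid dendritic cells (156 CPM, interval 112 to 212). The +/+ P2ry10 interval overlapped plasmacytoid dendritic cells (241 CPM). P2ry10b overlapped monocytes in fl/fl (48.4 CPM) and marginal zone-like B cells in +/+ (31.8 CPM). Marginal zone-like B cells were lower for P2ry10, at 101 CPM in fl/fl and 141 CPM in +/+. In fl/fl, transitional-like B cells (75 cells) were lower too, at 49.4 CPM. The +/+ transitional-like gate held only 14 cells and 75122 UMIs, too few to be ranked, so no order is given for it. Over all B cells (1257 fl/fl, 504 +/+) P2ry10 was at 149.6 CPM in fl/fl and 209.5 CPM in +/+, a log2 ratio of -0.49 (interval -0.62 to -0.35), which is the opposite direction to Treg cells and under 1.5-fold. Within the same B cells the plasma cell list summed to 234 CPM in fl/fl and 66.0 CPM in +/+ (4 of 5 in both, Tnfrsf17 at 0), and the cycling list to 219.9 CPM in fl/fl and 93.3 CPM in +/+ (4 of 4 in both). Their part in the B cell ratio was not tested. P2ry10b was at 37.7 CPM in fl/fl and 45.6 CPM in +/+ B cells (-0.27, interval -0.56 to 0.02). P2ry10 was lower in fl/fl in each B cell gate: -0.39 in follicular, -0.48 in marginal zone-like (interval -0.88 to -0.07) and -1.69 in transitional-like B cells (interval -2.73 to -0.57). The last ratio rests on 26 UMIs in 75 fl/fl cells and 12 UMIs in 14 +/+ cells. In plasma cells (114 fl/fl, 37 +/+) it was at 12.9 CPM in fl/fl and 32.7 CPM in +/+ (-1.35, interval -2.15 to -0.54). Transitional-like B cells and plasma cells were called lower for P2ry10, against 7.15% and 8.78% of all genes, and the median gene of the transitional-like gate stood at -0.35. P2ry12 had 3 fl/fl and 10 +/+ UMIs in marginal zone-like B cells (-2.60, interval -5.10 to -0.64) and was called lower, against 3.15%. It passed the 10 CPM floor through +/+ alone, where the UMIs sat in 6 of 70 cells. Over all B cells P2ry12 had 18 fl/fl and 21 +/+ UMIs (-1.41, interval -2.40 to -0.43), under the 10 CPM floor. The +/+ UMIs sat in 10 of 504 cells with up to 4 in 1 cell, and the fl/fl UMIs in 17 of 1257 cells. The interval does not cover this clustering within cells.

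The myeloid gates separated the other members. P2ry14 was highest in plasmacytoid dendritic cells, a type I interferon-producing cell, at 453 CPM (interval 375 to 542) in 32 fl/fl cells and 430.1 CPM (interval 352 to 519.7) in 27 +/+ cells, with no ratio beyond counting error (0.07, interval -0.31 to 0.46). Conventional dendritic cells came after them, at 70.9 CPM in 27 fl/fl cells and 144 CPM in 56 +/+ cells (-1.02, interval -1.77 to -0.34), which was called lower, against 4.09% of all genes. These UMIs came from few cells: 22 from 7 fl/fl cells with up to 8 in 1 cell, and 91 from 15 +/+ cells with up to 26 in 1 cell. The mean of the single cells' CPM was 58.6 in fl/fl and 108 in +/+ conventional dendritic cells. In both libraries the intervals set plasmacytoid dendritic cells apart from conventional ones. Among gates of at least 200000 UMIs conventional dendritic cells were apart from the gate ranked after them, but they overlap fl/fl red pulp macrophages (51.3 CPM, interval 22.1 to 101) and the 9 +/+ basophils or mast cells (114 CPM, interval 56.9 to 204), which are smaller gates. P2ry10 in plasmacytoid dendritic cells was at 156 CPM in fl/fl and 241 CPM in +/+ (-0.63, interval -1.24 to -0.03) and was called lower, against 2.6%.

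P2ry12 and P2ry13, the pair of ADP receptors, had their highest CPM in red pulp macrophages and plasmacytoid dendritic cells, on few UMIs. In red pulp macrophages, P2ry12 had 4 UMIs (25.6 CPM) in 41 fl/fl cells and 19 UMIs (73.5 CPM) in 69 +/+ cells. P2ry13 had 3 UMIs (19.2 CPM) in fl/fl and 17 UMIs (65.7 CPM) in +/+ red pulp macrophages. Both log2 ratios, -1.52 and -1.77, had intervals that include no difference. In plasmacytoid dendritic cells P2ry12 was at 34.2 CPM in fl/fl and 32.2 CPM in +/+, and P2ry13 at 34.2 CPM in fl/fl and 36.2 CPM in +/+. Their P2ry12 interval (15.7 to 65.0 in fl/fl, 13.9 to 63.4 in +/+) overlapped other gates. These were conventional dendritic cells in fl/fl (up to 28.2) and marginal zone-like B cells in +/+ (up to 27.8). For P2ry13 it overlapped neutrophils in fl/fl (up to 18.7) and was apart from them in +/+. No platelets, in which P2Y12 is best known, passed a gate in either library, so their P2ry12 level was not seen here.

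P2ry10b and P2ry10 parted in the myeloid cells. Monocytes had P2ry10b at 48.4 CPM (26 UMIs, 62 cells) in fl/fl and 17.8 CPM (15 UMIs, 60 cells) in +/+ (1.44, interval 0.47 to 2.47), called higher against 7.11% of all genes, while P2ry10 had 7 fl/fl and 6 +/+ UMIs there. Neutrophils (47 fl/fl, 88 +/+) had 0 UMIs of P2ry10 and P2ry10b in fl/fl, and 2 UMIs of P2ry10 and 0 of P2ry10b in +/+. In fl/fl plasmacytoid dendritic cells P2ry10 had 41 UMIs and P2ry10b had 0.

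**Figure D3:**
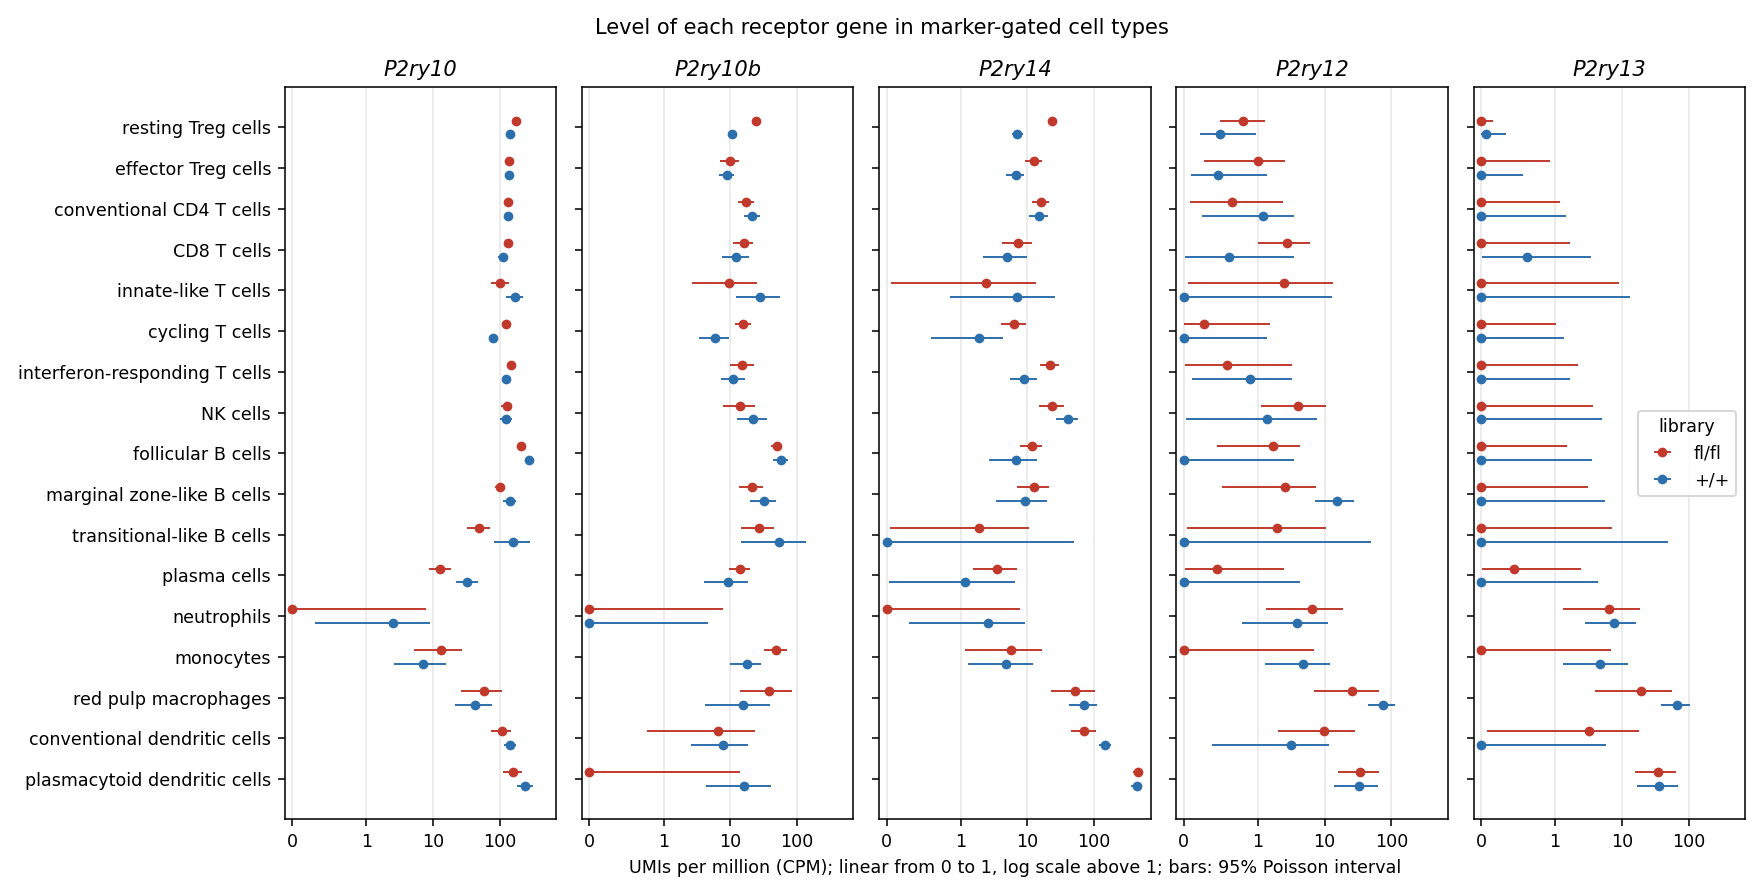
CPM of each receptor gene in 17 marker gates, with 95% Poisson intervals and fl/fl drawn above +/+. P2ry14 peaks in plasmacytoid dendritic cells (453 CPM in fl/fl and 430.1 CPM in +/+). The highest points of P2ry10 lie in follicular B cells. Those of P2ry12 and P2ry13 lie in red pulp macrophages and plasmacytoid dendritic cells, with intervals that partly overlap other gates. P2ry12 is also at 15.1 CPM in +/+ marginal zone-like B cells.

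Markers of those high cell types were measured in the Treg gate itself. The plasmacytoid dendritic list (Siglech, Ccr9, Bst2, Klk1, Cox6a2) summed to 200.5 CPM in fl/fl Treg cells, with 5 of 5 detected, and to 180.0 CPM in +/+ Treg cells, with 3 of 5 detected and Klk1 and Cox6a2 at 0. Bst2, which T cells also express, made up 194 CPM of this in fl/fl and 173 CPM in +/+. Siglech had 6 UMIs in fl/fl and 1 in +/+ Treg cells beside the 606 and 172 P2ry14 UMIs. In plasmacytoid dendritic cells Siglech had 441 UMIs to 119 of P2ry14 in fl/fl and 419 to 107 in +/+. The conventional dendritic list summed to 4.14 CPM in fl/fl (5 of 6 detected, Cd209a at 0) and 6.30 CPM in +/+ (4 of 6, Clec9a and Cd209a at 0), and the red pulp macrophage list to 2.35 CPM in fl/fl and 7.52 CPM in +/+ (6 of 6 in both). The NK list summed to 18.2 CPM in fl/fl and 7.09 CPM in +/+ (6 of 6 in both). The B cell list summed to 10.3 CPM in fl/fl and 16.3 CPM in +/+ (5 of 5 in both). The monocyte list summed to 93.0 CPM in fl/fl and 55.4 CPM in +/+ (5 of 6 in both, Fcgr1 at 0). Among T cell lists, the resting list summed to 1445 CPM in fl/fl and 1028 CPM in +/+ Treg cells (5 of 5 in both), and the conventional CD4 T list, which shares Lef1 with it and holds Cd4, to 908 CPM in fl/fl and 630.1 CPM in +/+ (4 of 4 in both). The follicular B list, which has 1 gene in common with the resting list, summed to 267 CPM in fl/fl and 178 CPM in +/+ (3 of 3 in both). The part that cells or free RNA of any of these types had in the Treg ratios was not tested, plasmacytoid dendritic cells included.

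Genes next to the members were measured for comparison. Gpr171, an orphan receptor 12.03 kb beyond the 3' end of P2ry14, was at 24.5 CPM in fl/fl and 14.9 CPM in +/+ Treg cells (log2 ratio 0.72, interval 0.54 to 0.90). It was the 1 called gene, higher, of 3 measured among the 7 neighbours. Over all measured genes 2.24% were higher and 9.78% lower. Med12l, which spans the chromosome 3 receptors on the other strand, was at 6.42 CPM in fl/fl and 4.84 CPM in +/+ Treg cells (0.41, interval 0.07 to 0.75). In conventional CD4 T cells, where P2ry14 did not differ beyond counting error, Med12l was at 17.6 CPM in fl/fl and 7.95 CPM in +/+ (1.14). On chromosome X, Gpr174, another lysophosphatidylserine receptor, was at 108 CPM in fl/fl and 118 CPM in +/+ Treg cells (-0.13), near the median gene. Itm2a was at 63.2 CPM in fl/fl and 51.7 CPM in +/+ (0.29).

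**Figure D4:**
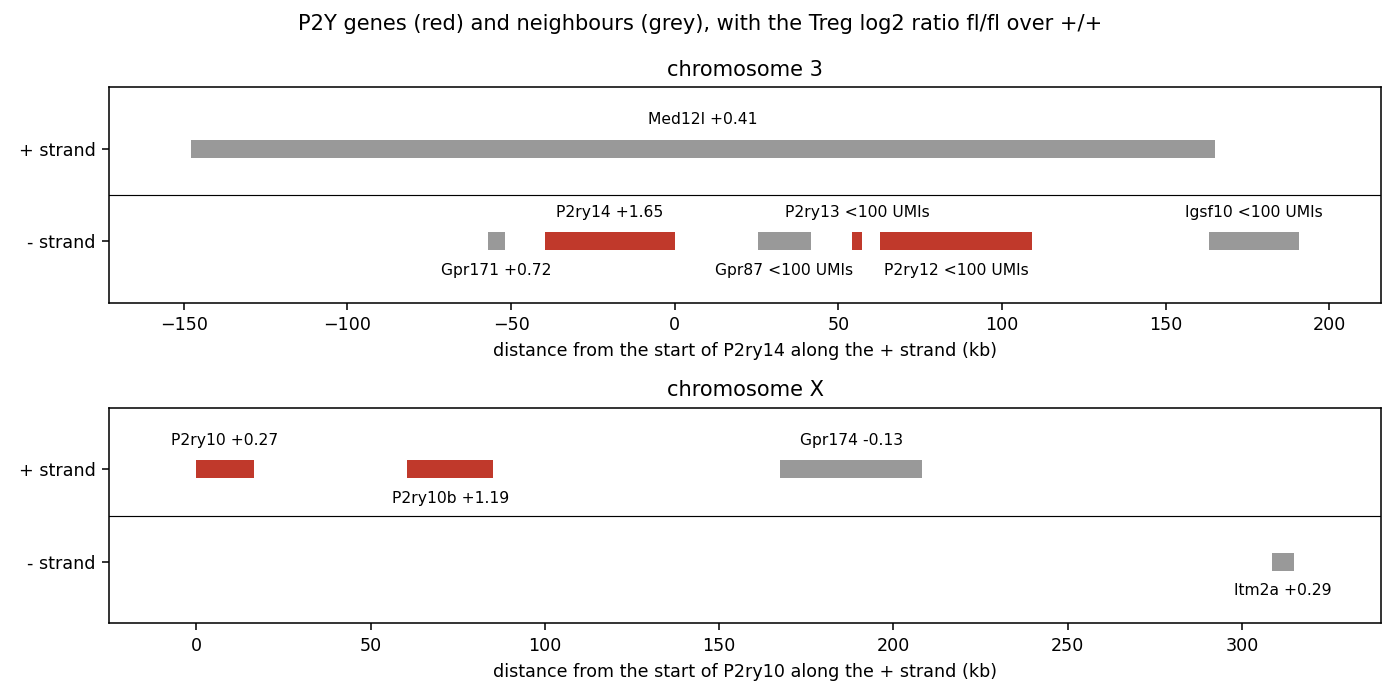
The receptor genes (red) and their neighbours (grey) by distance in kb from the start of P2ry14 or P2ry10, each with its log2 ratio (fl/fl over +/+) in Treg cells where it had at least 100 UMIs. P2ry14 (1.65) and P2ry10b (1.19) stand beside genes with smaller ratios, Gpr171 (0.72) and P2ry10 (0.27).

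The remaining P2Y genes were almost silent in Treg cells. P2ry1 had 3 fl/fl and 5 +/+ UMIs, P2ry2 had 2 and 1, P2ry6 had 1 and 0, and P2ry4 had none in either, so 0 of these 4 were measured at 10 CPM. Of 13 related orphan, lysolipid and oxysterol receptors, 9 were measured, 1 was higher (Gpr171) and 2 were lower. Over all measured genes 2.24% were higher and 9.78% lower, and these few calls are a description. The median log2 ratio of the 9 was -0.13, beside -0.14 over all measured genes. Gpr34, a lysophosphatidylserine receptor like P2Y10, was at 5.47 CPM in fl/fl and 14.4 CPM in +/+ (-1.40, interval -1.68 to -1.12). It passed the 10 CPM floor through +/+ alone. Cysltr2, a receptor for cysteinyl leukotrienes, was at 10.1 CPM in fl/fl and 16.0 CPM in +/+ (-0.67). Of the 4 genes of the lysophosphatidylserine receptor group, P2ry10b was thus called higher, Gpr34 was called lower, and P2ry10 (0.27) and Gpr174 (-0.13) were not called. P2ry10b and Gpr34 each passed the floor only through the library where they were higher, so nothing is read from their number. Among those not called, Gpr183, the oxysterol receptor, was at 192 CPM in fl/fl and 191 CPM in +/+ (0.00), Gpr132 at 94.4 CPM in fl/fl and 131 CPM in +/+ (-0.48) and Gpr18 at 70.2 CPM in fl/fl and 48.7 CPM in +/+ (0.53).

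Downstream of the receptors, 12 of 13 genes for G protein subunits and their effectors were measured, with 0 higher, 2 lower and a median of -0.19. Over all measured genes 2.24% were higher and 9.78% lower. Gnaq, the alpha subunit that activates phospholipase C, was at 59.8 CPM in fl/fl and 147.7 CPM in +/+ (log2 ratio -1.30, interval -1.39 to -1.22). Gna12, another alpha subunit, was at 15.3 CPM in fl/fl and 25.2 CPM in +/+ (-0.72, interval -0.90 to -0.54). Gna13, a subunit of the same class, was at 165 CPM in fl/fl and 234 CPM in +/+ (-0.50), under the 1.5-fold. The inhibitory subunit Gnai2 was at 371 CPM in fl/fl and 421 CPM in +/+ (-0.18), and Rhoa, Rock1 and the exchange factor Arhgef1 had ratios of -0.07, -0.14 and 0.11.

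Genes that supply the ligands showed no call. Of 10 genes for lysophosphatidylserine and UDP-sugar supply 7 were measured, 0 were higher and 0 lower, and the median was -0.08. The shares over all measured genes were 2.24% higher and 9.78% lower. Slc35d1, which carries UDP-sugars into the endoplasmic reticulum, was at 107 CPM in fl/fl and 81.6 CPM in +/+ (log2 ratio 0.39). Ugp2, which makes UDP-glucose, was at 48.6 CPM in fl/fl and 57.7 CPM in +/+ (-0.25), and Uggt1, which uses UDP-glucose in glycoprotein folding, at 57.2 CPM in fl/fl and 66.5 CPM in +/+ (-0.22). Abhd12, which breaks down lysophosphatidylserine, was at 27.7 CPM in fl/fl and 34.5 CPM in +/+ (-0.31).

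**Figure D5:**
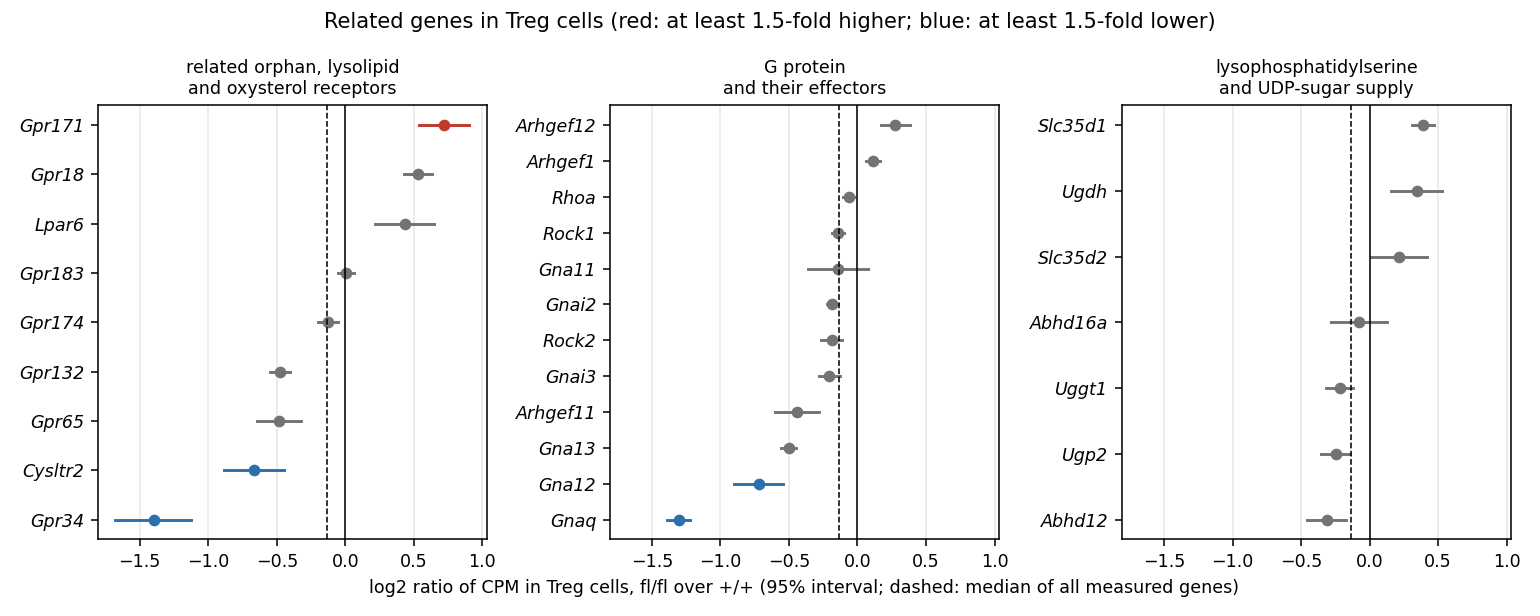
Log2 ratio (fl/fl over +/+) in Treg cells of the measured genes of 3 lists, with 95% intervals; the dashed line is the median of all measured genes at -0.14. Gpr171 lies above 1.5-fold, and Gpr34, Cysltr2, Gnaq and Gna12 lie below it on the lower side.

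Across 32 points, each a gate in 1 library, P2ry12 and P2ry13 had a Pearson correlation of 0.93 on the log2(CPM + 10) scale, and each was among the 5 genes most like the other out of 6936 compared. P2ry10 and P2ry10b, the pair closest in sequence, had 0.34, and P2ry14 had 0.68 with P2ry12 and 0.65 with P2ry13. The genes most like P2ry14 were Cd209d (0.90), Adam11, Tsc22d1, Shb and Mycl (0.88). Among those most like P2ry10 were Ankib1 (0.93), Gpbp1, Matr3 and Rbbp6 (0.88). P2ry10b had weaker neighbours, Ddx41 (0.75), Brwd1, Prkce, Bicra and Nsf (0.70). P2ry12 and P2ry13 shared Tmem86a (0.91 and 0.94), Sct (0.91 and 0.94) and Gpr157 (0.89 and 0.88), and P2ry13 also had Nceh1 (0.89). P2ry13 had 0 UMIs in 12 of 16 fl/fl gates and 10 of 16 +/+ gates, and no more than 17 UMIs in any. Its correlations thus rest on few gates. The points share libraries, depth and gates, so these values are a description.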

How the data were processed

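Droplet libraries (10x Genomics 3' V3.1 kit) were made from sorted spleen cells, 1 library of 3 pooled mice per group. Per the submitters' processing notes, fastp, Cell Ranger 7.1.0 and Seurat 4.1.1 were used with the builds mm10 and GRCm38. Whether introns or strand were used in counting is not given in the sources used here. The authors deposited raw UMI counts per gene and barcode, with no normalization.

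Barcodes with fewer than 500 genes or more than 10% mitochondrial UMIs were left out. Cells were gated on marker UMIs: at least 5 UMIs over at least 3 markers for a lineage or for Treg cells, at least 3 over at least 2 for subsets, at least 2 for CD8 T cells. Cells that passed several lineages were left out as likely doublets (361 fl/fl and 323 +/+), and no doublet caller was run. The gate thresholds were set after the files were seen. The members and lists were chosen with earlier results of these data known.

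UMIs were summed per gate and library and scaled to CPM. Levels have exact Poisson intervals, ratios exact conditional binomial intervals and shares Clopper-Pearson intervals at 95%. They cover counting error only. A gene at 10 CPM or more in either library was called at a ratio of at least 1.5 with an interval excluding 1, with no test, since each group has 1 library. The interval and call code was tested on simulated data. Shares used cells thinned to 2500 UMIs. Genes named are the 5 members in every gate, the 5 genes most like each, the called genes of 5 lists and up to 4 others of each list by CPM; some genes that the rule or the gates name are not reported here. Likeness used gates of at least 200000 UMIs and genes reaching 50 CPM. Of the 31253 gene IDs, 31107 (99.5%) are in GENCODE M21. All 5 members have a promoter in the RefSeq table. Coding sequences were aligned globally. Python 3.11.15, NumPy 2.4.6, SciPy 1.17.1, pandas 2.3.3, Biopython 1.88 and matplotlib 3.10.9 were used. Alternatives were the scaling, gates, cell filters, thinning, call floor and fold.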

Additional observations from a re-analysis of the deposited data

Results flagged for a closer look

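P2ry10 and P2ry14 went in opposite directions in different cell types, with intervals on both sides that exclude no difference; the differences between cell types were not tested. For P2ry10 the log2 ratio (fl/fl over +/+) was 0.63 in cycling T cells, 0.28 in interferon-responding T cells, 0.27 in Treg cells and 0.28 in CD8 T cells. The same gene was at -0.49 in B cells, -1.35 in plasma cells, -0.63 in plasmacytoid dendritic cells and -0.73 in innate-like T cells. For P2ry14 the log2 ratio was 1.77 in cycling T cells, 1.28 in interferon-responding T cells and 1.65 in Treg cells, and -1.02 in conventional dendritic cells. The last value rests on 22 fl/fl and 91 +/+ UMIs that came from few cells, a spread that its interval does not cover. Other genes moved in the same gates: the share of all measured genes called lower in fl/fl was 8.78% in plasma cells and 2.84% in B cells.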

How the results depend on the processing

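In Treg cells the log2 ratios kept their direction under every alternative run, from 0.18 to 0.40 for P2ry10, 0.35 to 1.32 for P2ry10b and 1.34 to 1.98 for P2ry14. Centring the libraries on the median gene gave 0.40 for P2ry10. Summing P2ry10 and P2ry10b gave 0.35 for both. Keeping only T cells with a Foxp3 UMI gave 0.36 for P2ry10, 0.97 for P2ry10b and 1.34 for P2ry14. Weighting resting and effector cells alike gave 0.18, 0.79 and 1.39 for the same genes. Thinned cells gave 1.98 for P2ry14. In B cells P2ry10 was at -0.66 with a mitochondrial limit of 5% and -0.30 with cells of several lineages kept, and keeping those cells gave -1.83 for P2ry14 in CD8 T cells. Stricter gates left P2ry13 in +/+ Treg cells at 0.

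Unthinned shares of fl/fl and +/+ Treg cells were 55.7% and 47.2% for P2ry10, 13.04% and 5.14% for P2ry10b, and 12.3% and 3.40% for P2ry14. Thinned to 1500 UMIs they were 20.9% and 18.1%, 2.78% and 1.32%, and for P2ry14 3.04% and 0.945%. Genes called higher in Treg cells numbered 67 at a fold of 2, 681 with no floor, 109 at 20 CPM, 282 with median scaling and 285 in cells with a Foxp3 UMI, and genes called lower 285 at a fold of 2 and 2241 with no floor; P2ry10b and P2ry14 were called higher in each. With median scaling, 2 related receptors were higher and 1 lower, and 1 G protein gene was lower, beside 282 higher and 540 lower of all 7946 measured genes.

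No paired analysis was possible because each group has 1 library. The cause of these shifts was not tested, and the small gates (under 100 cells) limit what depth can show.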

Other observations

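Cells that passed several lineage gates (361 fl/fl and 323 +/+), which were left out as likely doublets, held 8 P2ry13 UMIs in fl/fl and 53 in +/+, a log2 ratio of -2.91 (interval -4.20 to -1.83). The same cells held 94 P2ry14 UMIs in fl/fl and 126 in +/+ (-0.61, interval -1.01 to -0.21). They thus carried more P2ry13 UMIs than any single gate in +/+. The 3 fl/fl and 9 +/+ cells gated as basophils or mast cells held 0 and 11 P2ry14 UMIs.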
